A study of Mus musculus with 8 samples.

Results

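Hox genes encode homeodomain transcription factors that mark position along the body axis. The genes examined here are those with 1 of the array's probe sets under a single symbol of the form Hoxa, Hoxb, Hoxc or Hoxd and a number. Membership was set by name and used no measured value, though the family was chosen with earlier results of these data known. Such probe sets numbered 48 of 45101 and covered 33 of the 39 mouse Hox genes, among 18194 genes with a probe set of a single symbol. The tissue was fetal mouse small intestine, taken 18.5 days post coitum from 4 Plagl2 knockouts and 4 wild-types, with 1 Affymetrix array for each sample. Plagl2 is a zinc finger transcription factor. All values are signals on a linear scale, or differences of log2(signal + 16) between knockout and wild-type. The labels name neither the allele, the strain nor the stretch of small intestine, and do not say whether samples came from separate litters, so p-values here reflect only how far these samples vary, which may be technical.

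Hox genes lie in 4 clusters, and each carries a paralogue number from 1 to 13 that follows its order in the cluster. Genes of low number are as a rule switched on earlier and further forward along the axis, and genes of high number later and further back. In the gut they are active mainly in the mesenchyme and muscle layers and in the enteric nervous system, and the highest numbers mark the hindgut, which forms the colon. Their proteins bind DNA with partners of the Pbx and Meis families, and Cdx factors and retinoic acid are known to switch them on. Comparing paralogue numbers between genotypes therefore asks whether both sets of samples were taken from a like stretch of gut.

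The targeted gene, Plagl2, was read by 1417517_at at 784 ± 58.9 in the wild-types and at 6.25 ± 3.40 in the knockouts (SD, n = 4 each) (log2 fold change -5.18, limma adjusted p = 2.42e-09). Across the tested probe sets the median correlation of log2 signals with the other arrays of its genotype was 0.964 for wild-type replicate 3 and 0.971 to 0.974 for the other wild-types. Among knockouts it was 0.964 for replicate 4 and 0.967 to 0.972 for the others. Knockout replicates 2 and 3 alone carry the signal of Xist, the RNA of the inactive X chromosome (1828 and 1410, against 20 to 47 elsewhere), so sex and genotype are not balanced. Defining epithelial genes were present, 10 of 10 having passed the limit on low signals, as had 10 of 11 mesenchyme and 9 of 10 smooth muscle genes. The extraction text of every sample speaks of wild-type tissue, while titles and series design give the genotypes used here.

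Signals of low and middle paralogues were found in both genotypes, and those of high paralogues were dim in both. A probe set was tested when its mean over all 8 arrays was above the lowest 40% of probe sets, a limit at a signal of about 23.0. Of 31 probe sets for paralogues 1 to 8, 22 passed, from 15 genes, and their mean was at least 24.2 in each genotype. None of the 17 probe sets for paralogues 9 to 13, from 14 genes, passed, and the highest signal any of them gave on an array was 54, for Hoxc9 in knockout replicate 3. Over all probe sets other than controls 60% passed. Probe sets differ in how well they bind, so a dim one does not show that its gene is silent, and signals of different genes are not ranked here. The deposited table used here has no detection calls.

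Hoxb5 was the 1 Hox gene called as different between the genotypes. It encodes a factor active in gut mesenchyme and in enteric neural crest cells. Its probe set, 1418415_at, gave 75, 58, 105 and 58 in the wild-types, in the order of replicates 1 to 4, and 164, 147, 107 and 219 in the knockouts in the same order. The lowest knockout, replicate 3, lay just above the highest wild-type, replicate 3, so the groups did not overlap. The means were 74.0 ± 22.2 and 159 ± 46.4 (SD, n = 4), and the log2 fold change was 0.95 ± 0.22 (SE, limma adjusted p = 0.0125). Of the 22 tested Hox probe sets this was the 1 called as higher (4.55%), against 5.28% of all 27022 probe sets tested, and 0 were called as lower, against 6.70%. At an unadjusted p under 0.05 there were 5 Hox probe sets higher and 0 lower (22.7% of those tested), against 25.5% of all probe sets in either direction. The share called in either direction over all probe sets was 12.0%, so the Hox genes as a family were called no more often than probe sets in general. The call of Hoxb5 held with each array left out in turn (log2 fold change 0.80 to 1.11, adjusted p = 0.00442 to 0.0457). It was lost with the 3' to 5' ratio of the control probe sets, which reads RNA integrity and labelling, as a covariate. That ratio was -0.06 to 0.01 in wild-types and 0.02 to 0.10 in knockouts on the log2 scale (Hoxb5 log2 fold change 1.19, adjusted p = 0.0666). The ratio did not overlap between the genotypes, so the fit cannot fully separate ratio from genotype.

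Another 4 probe sets, of paralogues 3 to 5, were higher at an unadjusted p under 0.05, and none of them passed the adjusted threshold. Hoxa5 encodes a factor of foregut and midgut mesenchyme, and one of its probe sets, 1448926_at, gave 256, 240, 377 and 152 in wild-type and 471, 440, 283 and 443 in knockout replicates 1 to 4. Knockout replicate 3 fell among the wild-types and wild-type replicate 3 above it, so the groups overlapped. The log2 fold change was 0.68 ± 0.23 (SE, adjusted p = 0.0834). A second Hoxa5 probe set, 1443803_x_at, whose suffix marks probes that can bind related transcripts, had 0.24 ± 0.29 (adjusted p = 0.659).

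Hoxb3, best known for its part in hindbrain patterning, was read by 1456229_at at 156, 145, 233 and 140 in wild-type and 299, 279, 159 and 336 in knockout replicates 1 to 4. Again 1 knockout, replicate 3, lay within the wild-type range. Its log2 fold change was 0.60 ± 0.22 (adjusted p = 0.103), and the other Hoxb3 probe set tested, 1427605_at, had 0.49 ± 0.21 (adjusted p = 0.177). Hoxc4 (1422870_at) gave 56, 66, 63 and 63 in wild-type and 118, 87, 61 and 122 in knockout samples (0.50 ± 0.19, adjusted p = 0.118), with knockout replicate 3 once more among the wild-types.

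Whether Hox genes other than Hoxb5 were called turned on which arrays were used. Without wild-type replicate 3, 3 Hox probe sets were called as higher, those of Hoxb5, Hoxa5 (adjusted p = 0.0145) and Hoxb3 (0.0325). Without knockout replicate 3 they were 4, those of Hoxb5, Hoxa5 (0.0342), Hoxb3 (0.00982) and Hoxc4 (0.0184). In the 6 arrays without Xist signal 4 were called, Hoxb5, Hoxb3 (0.0273), Hoxc4 (0.0171) and Hoxb6 (0.0108). No setting called a Hox probe set as lower. The number of calls also moved outside the Hox genes. Over all probe sets it was 3238 with every array, 4251 with wild-type 3 dropped and 3335 with knockout 3 dropped. It fell to 2152 on the 6 arrays that lack Xist.

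**Figure D1:**
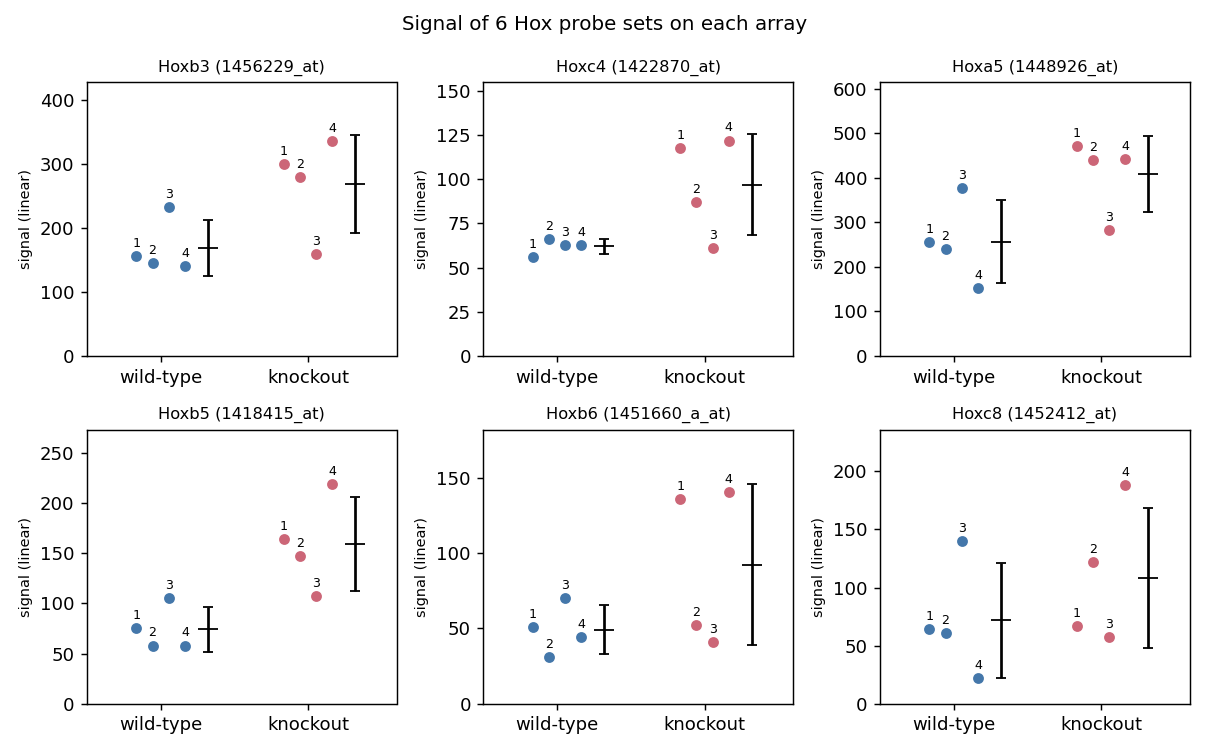
Signal on a linear scale (vertical axis, from 0) of the probe sets of Hoxb3, Hoxc4, Hoxa5, Hoxb5, Hoxb6 and Hoxc8 in wild-type (blue) and knockout (red) samples; points are arrays numbered by replicate, and the black mark and bar are the mean and SD of 4 arrays. Knockout replicate 3 is the lowest knockout in each panel, and only Hoxb5 has its 4 knockouts, 107 to 219, above its 4 wild-types, 58 to 105.

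On the log2 scale Hoxc8 and Hoxb6 varied most within the genotypes among the tested Hox probe sets, with standard errors of 0.40 and 0.33. Hoxb6 (1451660_a_at) gave 51, 31, 70 and 44 in wild-type and 136, 52, 41 and 141 in knockout replicates 1 to 4, so that knockout replicates 1 and 4 stood above every wild-type and replicates 2 and 3 among them. Its log2 fold change was 0.63 ± 0.33 (SE, adjusted p = 0.262). Hoxc8, which patterns the trunk skeleton, gave 64, 61, 140 and 22 in wild-type and 67, 122, 57 and 188 in knockout samples by 1452412_at (0.56 ± 0.40, adjusted p = 0.432). Wild-type replicate 3 was here above 3 of the 4 knockouts.

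The remaining tested members had log2 fold changes between -0.25 and 0.31. The lowest was Hoxb4 by 1451761_at (-0.25 ± 0.22 SE, adjusted p = 0.523), while its other probe set 1460379_at had 0.11, so the sign of the Hoxb4 difference is not settled. In the Hoxa cluster the lowest value was that of Hoxa2 (-0.09, adjusted p = 0.819). In the Hoxc cluster it was that of Hoxc6 by 1427362_x_at (0.00, adjusted p = 0.992), with 0.30 and 0.05 for the other Hoxc6 probe sets. Hoxd8 gave both ends of the Hoxd cluster, 0.23 by 1433638_s_at and -0.07 by 1431099_at. Genes of 1 cluster share a stretch of chromosome and can share transcripts, so these probe sets are not independent of each other.

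By paralogue number, low and middle paralogues both had median log2 fold changes above 0. Over the 11 tested probe sets of paralogues 1 to 4 the median log2 fold change was 0.13, 8 of them above 0, with 0 called and 3 at an unadjusted limma p under 0.05, all 3 of them higher. Over the 11 of paralogues 5 to 8 it was 0.30, with 9 above 0 and 1 called. Over all 22 it was 0.23, with 17 above 0 (77.3%), against 0.03 and 53.6% over all probe sets tested. The slope of the log2 fold change on paralogue number was 0.020 per paralogue step. The same slope for a single array's deviations ran from -0.074 to 0.074 in wild-type samples (replicates 4 and 3) and from -0.039 to 0.040 in knockouts (replicates 3 and 4). The sign of the slope of the difference turned without wild-type replicate 4 (-0.001) and with no limit on low signals (-0.027).

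**Figure D2:**
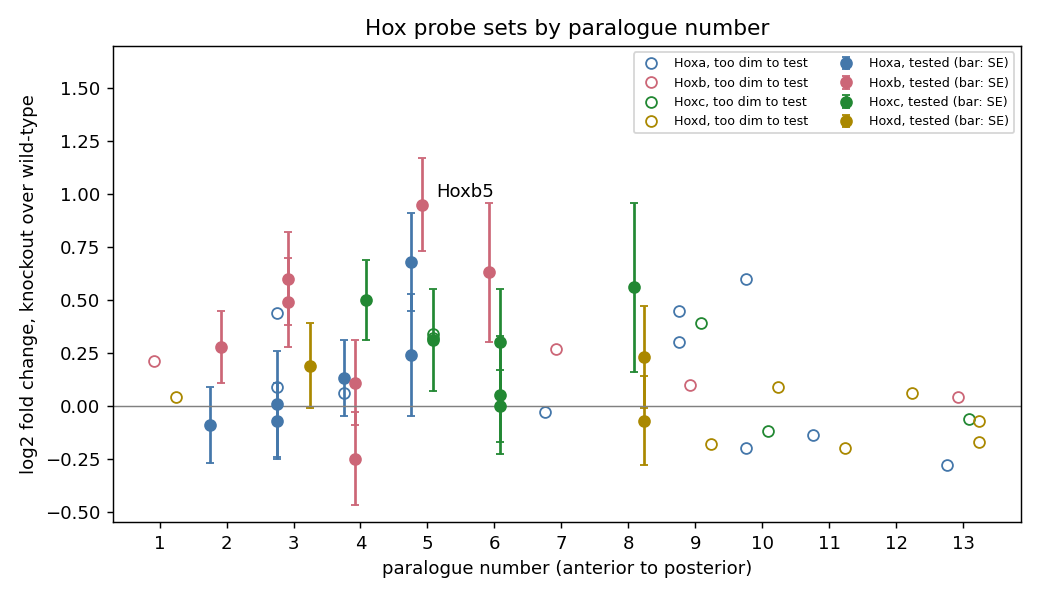
Log2 fold change of knockout over wild-type (vertical axis, log2 scale) of each Hox probe set against its paralogue number, coloured by cluster; filled points are the 22 tested probe sets with their SE, and open points the 26 that were too dim to test, as the mean log2 difference. Hoxb5 is highest at 0.95, and no filled point lies beyond paralogue 8.

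The dim probe sets were looked at singly with an exact permutation test, whose smallest two-sided p for 4 against 4 samples is 0.0286. Of 26, 16 had a mean log2 difference above 0, and 1 had no overlap between the genotypes, against 3.05% of all probe sets left out as dim and 17.0% of those tested. It was 1446408_at of Hoxa10, a gene of the posterior trunk and reproductive tract, which gave 3, 15, 16 and 11 in wild-type and 23, 21, 31 and 24 in knockout samples (exact permutation p = 0.0286). A second Hoxa10 probe set, 1431475_a_at, gave 11 to 16 in wild-type and 1 to 13 in knockout samples, a difference of the opposite sign (-0.20). The hindgut genes Hoxb13 (1 to 4 on every array), Hoxd12 (1 to 5) and, by 1422239_at, Hoxd13 (1 to 5) were near 0 throughout, while the other Hoxd13 probe set, 1440626_at, gave 14 to 27. Hoxa13 gave 13 to 46 in wild-type and 9 to 33 in knockout samples.

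Across single arrays the tested Hox probe sets went up and down together, and with the genes of mesenchyme, smooth muscle and enteric neurons and glia. For each probe set the deviation of an array is its log2 signal less the mean of all 8 arrays. The mean deviation of the 22 Hox probe sets was -0.13, -0.21, 0.14 and -0.33 in wild-type replicates 1 to 4 and 0.29, 0.08, -0.25 and 0.41 in knockout replicates 1 to 4. The genotypes overlapped, since knockout replicate 3 lay below 3 wild-types and wild-type replicate 3 above 2 knockouts. Of the 22 probe sets, 16 had their lowest knockout signal in replicate 3 (36% of all tested probe sets had) and 15 their highest in replicate 4 (32.9%). Among wild-types, 14 were highest in replicate 3 (34%), and in 14 replicate 4 was the lowest or shared the lowest value (28.3%).

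The 10 tested genes of a list of 11 mesenchyme genes, among them collagens and Pdgfra, had mean deviations of -0.08, -0.23, 0.08 and -0.33 in wild-type and 0.31, 0.10, -0.25 and 0.41 in knockout replicates 1 to 4. Within each genotype the arrays stood in the same order by Hox genes as by this list, replicates 4, 2, 1 and 3 from low to high in wild-type and 3, 2, 1 and 4 in knockout samples. Of these 10 genes 1 was higher, Pdgfrb (0.40, adjusted p = 0.0228, adjusted p = 0.0505 to 0.0757, and so not called, when wild-type 2 or 4 or knockout 1, 2 or 4 was left out), and 0 lower, with a median of 0.25 against 0.03 over 12838 genes tested. Its summed signal was 11436 to 16542 in wild-type and 12403 to 20363 in knockout samples, and no gene of it was at 0 on all arrays. Smooth muscle genes had deviations from -0.54 to 0.18 in wild-type and from -0.23 to 0.47 in knockout samples. Their order was that of the Hox genes in wild-types, but in knockouts replicate 2 (0.29) stood above replicate 1 (0.25). Of 9 smooth muscle genes 1 was called as higher, Smtn (0.67, adjusted p = 0.0159, 0.0522 to 0.0603 when wild-type 1 or 2 or knockout 1 or 2 was left out), and 0 lower, with a median of 0.49. Epithelial genes ran the other way within the knockouts, highest in replicate 3 (0.45) and lowest in replicate 4 (0.01).

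With the level of the mesenchyme list on each array as a covariate, an alternative added after the data were seen, the median Hox log2 fold change was -0.04, 10 of 22 were above 0, and the log2 fold change of Hoxb5 was 0.55 (adjusted p = 0.0364), still called. With the same covariate Hoxa5 had 0.27 by 1448926_at and -0.35 by 1443803_x_at, and Hoxb3 0.17 by 1456229_at and 0.45 by 1427605_at. Hoxc4 had 0.23 and Hoxb6 0.00. The mean deviation of the mesenchyme list itself ran from -0.33 to 0.08 in wild-type and from -0.25 to 0.41 in knockout samples. This fit therefore cannot fully separate mesenchyme level from genotype. In whole tissue, fewer cells of a type and less RNA per cell cannot be told apart. The 12 tested genes of enteric neurons and glia had mean deviations of 0.00, -0.32, 0.20 and -0.34 in the wild-types and 0.27, 0.07, -0.28 and 0.41 in the knockouts, which is again the array order of the Hox genes within each genotype. For this list the median was 0.44, with 0 of 12 higher and 1 lower, S100b (-0.89, adjusted p = 0.0379, 0.058 to 0.116 when wild-type 1, 2 or 4 or knockout 1, 2 or 3 was left out). The part of mesenchyme, smooth muscle, neurons and glia in the Hox values was not tested.

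**Figure D3:**
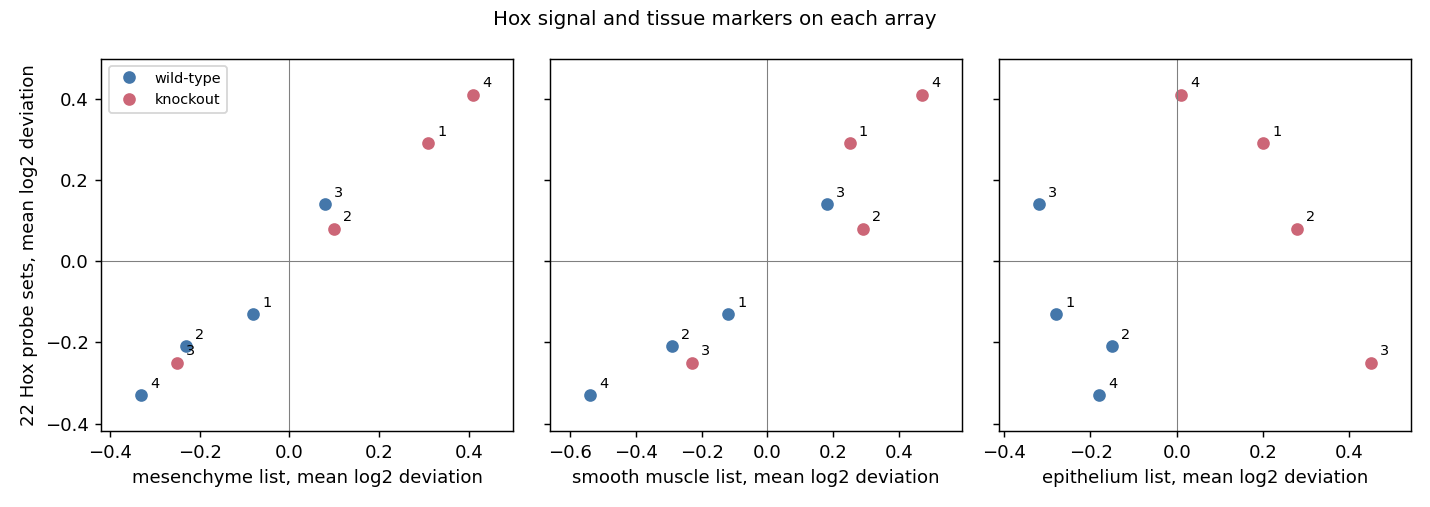
Mean log2 deviation of the 22 tested Hox probe sets (vertical axis) against that of the mesenchyme, smooth muscle and epithelium lists (horizontal axes, log2), 1 point per array, wild-type in blue and knockout in red, numbered by replicate. Knockout replicate 4 is highest (0.41 on both axes of the mesenchyme panel) and wild-type replicate 4 lowest (-0.33 on both), and in the epithelium panel knockout replicate 3 lies furthest right (0.45).

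Among factors that work with Hox proteins or switch their genes on, Cdx1 fell and Meis1 rose. Cdx1, a homeodomain factor of intestinal epithelium, gave 414, 434, 304 and 345 in wild-type and 143, 230, 171 and 170 in knockout replicates 1 to 4, with no overlap (log2 fold change -1.01 ± 0.16 SE, limma adjusted p = 0.00113). It was called in each of the 21 alternatives. Its relative Cdx2, which sets intestinal identity, gave 844, 920, 825 and 851 against 731, 471, 894 and 606 (-0.38 ± 0.16, adjusted p = 0.162). Leaving out knockout replicate 3 made Cdx2 a lower call (-0.52, adjusted p = 0.0292). Of the 12 tested genes of the Cdx, Gdf11 and retinoic acid pathways, 1 was lower and 1 higher, Aldh1a1, an enzyme that makes retinoic acid (1.21 ± 0.19, adjusted p = 0.00119), and the median was 0.01. Gdf11 itself was too dim to test. It gave 46, 18, 25 and 17 in wild-type and 13, 6, 7 and 7 in knockout samples. These did not overlap, which held for 3.05% of all probe sets left out as dim.

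Meis1, a partner that binds DNA together with Hox proteins, gave 106, 100, 162 and 73 in wild-type and 209, 216, 150 and 264 in knockout samples (0.86 ± 0.21 SE, adjusted p = 0.0210). Like Hoxa5 and Hoxb3 it had knockout replicate 3 within the wild-type range, and it lost its call without any 1 of 6 arrays, those of wild-types 1, 2 and 4 and of knockouts 1, 2 and 4 (adjusted p = 0.0525 to 0.0620). With the mesenchyme level as a covariate Meis1 had 0.48 (adjusted p = 0.0851) and was not called. Of 7 tested partner genes 1 was higher and 0 lower, at unadjusted p under 0.05 1 and 1, the lower being Meis3 (-0.51, adjusted p = 0.0718), with a median of 0.22. Of 28 Polycomb and trithorax genes, whose complexes keep Hox genes off or on, 1 was higher, the histone demethylase Kdm6b (0.89 ± 0.12, adjusted p = 0.000463), and 0 lower, with 7 and 1 at an unadjusted p under 0.05 and a median of 0.11. Over all genes tested 6.6% were called as higher and 8.5% as lower.

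Markers of gut regions were mixed. Of 21 tested regional transcription factors 1 was higher, Foxa3 (0.58, adjusted p = 0.00780, but 0.0558 in the arrays without Xist signal), and 1 lower, Cdx1, with a median of 0.11. The factors of the proximal small intestine did not pass: Gata4 gave 274 ± 19.3 and 308 ± 31.3 (SD, n = 4; 0.15, adjusted p = 0.423), Pdx1 97.8 ± 27.0 and 122 ± 33.9 (0.26, adjusted p = 0.507) and Onecut2 329 ± 58.2 and 365 ± 85.8 (0.13, adjusted p = 0.689) in wild-type and knockout samples. Of the 11 genes of the proximal list 1 was lower, the iron exporter Slc40a1 (-0.68, adjusted p = 0.00989), and 0 higher, with 4 and 1 at an unadjusted p under 0.05 and a median of -0.03. Besides Slc40a1, those lower were the hormone genes Gip (-1.14, adjusted p = 0.0765) and Cck (-0.50, 0.0988), and Lct (-0.40, 0.0817). The higher one was Ada (1.22, 0.115).

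**Figure D4:**
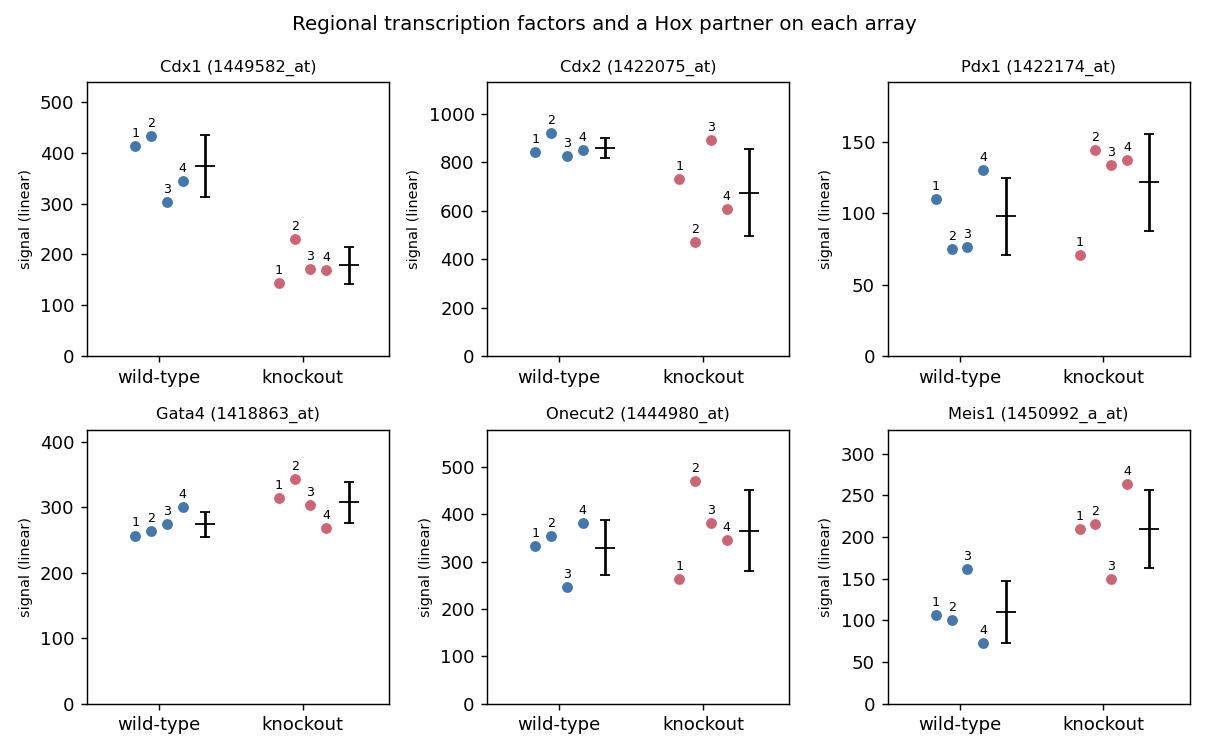
Signal on a linear scale (vertical axis, from 0) of Cdx1, Cdx2, Pdx1, Gata4, Onecut2 and Meis1 in wild-type (blue) and knockout (red) samples, points numbered by replicate, with the mean and SD of 4 arrays in black. Only Cdx1 has no overlap between the genotypes, at 304 to 434 in wild-type and 143 to 230 in knockout samples.

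Of 8 tested genes of the distal small intestine 3 were lower and 0 higher, with a median of -0.59. They were Amn, which anchors the vitamin B12 receptor (-1.15, adjusted p = 0.000126), and the hormone genes Nts (-1.66, adjusted p = 0.0140, but 0.0503 without wild-type replicate 2, 0.0852 with the Xist covariate and 0.08 with the mesenchyme covariate) and Pyy (-0.80, adjusted p = 0.00911). At an unadjusted p under 0.05, 5 were lower and 1 higher, Fabp6, the ileal bile acid binding protein. Fabp6 gave 222, 460, 13 and 101 in wild-type and 321, 4286, 4505 and 131 in knockout samples (2.82 ± 1.10 SE, adjusted p = 0.129), so it was high in the 2 knockouts with Xist signal and overlapped the wild-types in the others. The ileal bile acid transporter Slc10a2 was at 0 to 13 on all arrays. Of 4 tested colon genes 1 was lower, the hormone gene Insl5, which gave 170, 218, 29 and 237 in wild-type and 14, 12, 25 and 5 in knockout samples (-2.36 ± 0.46, adjusted p = 0.00569), and 0 were higher, with a median of -0.70. The colon gene Retnlb ranged from 191 to 2002 among wild-types and from 2 to 656 among knockouts.

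Tissues that could adhere to the dissected gut were listed as well. Of 15 stomach genes 5 were bright enough to test and 0 were called in either direction (0 and 0 at an unadjusted limma p under 0.05), nearest being Gkn3 (-1.34, adjusted p = 0.257) and Ghrl (0.14, 0.646). Kidney and adrenal, organs in which posterior Hox genes are active, had 3 of 11 tested and 0 called (0 and 0 unadjusted, limma), with Nphs1 at 0.44 (adjusted p = 0.289) and Pax8 at 0.18 (0.719), and a summed signal of 77 to 99 in wild-type and 90 to 130 in knockout samples. Pancreas genes had 8 tested and 0 called (0 and 0 unadjusted, limma), with Ins2 at 0.73 (adjusted p = 0.477) and Cpb1 at 0.79 (0.588), and summed signals that ranged widely, 433 to 3477 and 758 to 6210. Liver genes had 4 tested, with F9 lower (-1.06, adjusted p = 0.0129, but 0.0676 in the arrays without Xist signal) and a summed signal of 321 to 582 and 63 to 6013. Alb and Ahsg were high in knockout replicates 4 and 1, which also had the highest Hox deviations (0.41 and 0.29). Hpx, too dim to test, also gave its highest signals in these replicates, while other liver genes differed. Alb, serum albumin, gave 15, 22, 122 and 75 in wild-type and 656, 4, 32 and 4646 in knockout samples (1.92, adjusted p = 0.411), and Ahsg, too dim to test, gave 3 to 13 in wild-type and 86, 2, 8 and 453 in knockout samples. Fgb gave 51, 137, 90 and 85 in wild-type and 40, 2, 1 and 809 in knockout samples. Serpina1b gave 203, 246, 324 and 317 against 70, 51, 87 and 529. Both were thus above the wild-types in knockout replicate 4 and below them in knockout replicate 1. Of the dim genes, Hpx gave 2, 1, 10 and 17 in wild-type and 26, 19, 13 and 218 in knockout samples. Tat gave 4, 3, 5 and 8 against 3, 5, 34 and 2, and Cyp2e1 13, 12, 9 and 17 against 27, 8, 27 and 25. The part of liver RNA in the Hox values was not tested. For endothelium 0 of 7 were called (0 and 0 unadjusted, limma), with Tek at -0.25 (adjusted p = 0.261) and Lyve1 at 0.24 (0.307). Of 5 tested blood cell genes 1 was lower, Csf1r, the macrophage growth factor receptor (-2.38, adjusted p = 7.88e-07), and 0 higher. At an unadjusted p under 0.05, 2 were lower and 1 higher, and the median was -0.34. The others were Ptprc (-0.44, adjusted p = 0.122), Cd68 (-0.34, 0.433), Lyz2 (0.28, 0.202) and Alas2 (0.64, 0.165). Of the 10 epithelial genes 4 were higher, among them Cldn3 (1.85) and Krt20 (2.55), and 1 lower, Krt18 (-1.02). Corrected for the 3' to 5' ratio, several of the calls above were lost in the limma fit, those of Meis1 (adjusted p = 0.088), Foxa3 (0.111), Slc40a1 (0.196), Pdgfrb (0.231), Smtn (0.121), S100b (0.276), F9 (0.117), Krt8 (0.16) and Krt19 (0.0551).

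The genes next to the Hox clusters showed little. Of the 24 protein-coding genes nearest the ends of the 4 clusters, taken in order from the RefSeq table, 17 were tested, 0 were higher and 1 was lower, Atp5g1 beside the Hoxb cluster (-0.41, adjusted p = 0.00911). Cbx1 and Snx11, at the other end of that cluster, had 0.10 and -0.15. The transcript Hoxb5os, named as antisense to Hoxb5, gave 81.0 and 91.5 (0.10, adjusted p = 0.799), so it did not share the difference called for Hoxb5. It belongs to 8 probe sets whose symbol holds a Hox name but falls outside the rule, of which 3 name a pair of genes and 5 an antisense transcript. Among these, the probe set shared by Hoxd3 and Hoxd4 (1421537_at) had 0.58 (adjusted p = 0.282) and that shared by Hoxb7 and Hoxb8 0.27 (adjusted p = 0.557).

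Promoter windows of 250 bases before to 50 after the start, from RefSeq (GRCm38.p6), were matched to 22 Hox genes with 24 windows, Hoxb3, Hoxb5 and Hoxb6 not among them. The windows of Hoxa5 and Hoxc4 are shown because both genes are among those higher at an unadjusted p under 0.05. Their longest run in common, in capitals, has 12 bases and begins 162 bases before the Hoxa5 start (chr6:52204538-52204837, minus strand) and 122 bases before the Hoxc4 start (chr15:103034145-103034444, plus strand).

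Hoxa5 promoter: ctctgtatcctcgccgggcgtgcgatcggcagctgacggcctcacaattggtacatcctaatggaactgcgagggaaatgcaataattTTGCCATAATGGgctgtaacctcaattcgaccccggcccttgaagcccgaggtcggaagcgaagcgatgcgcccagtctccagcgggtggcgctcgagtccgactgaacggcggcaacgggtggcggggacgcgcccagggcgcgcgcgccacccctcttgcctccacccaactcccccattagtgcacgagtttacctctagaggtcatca
Hoxc4 promoter: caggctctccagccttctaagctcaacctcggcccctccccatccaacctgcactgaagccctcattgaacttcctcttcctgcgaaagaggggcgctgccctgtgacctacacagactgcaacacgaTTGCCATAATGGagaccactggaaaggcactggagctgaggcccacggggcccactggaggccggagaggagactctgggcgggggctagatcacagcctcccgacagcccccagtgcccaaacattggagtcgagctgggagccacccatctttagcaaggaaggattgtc

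Searched for on both strands, this run was found in 2 of 32851 promoter windows (0.00609%), those of Hoxa5 and Hoxc4 themselves. As the run was defined by these windows and the pair was chosen after their values were seen, the count is a description and no site of a factor.

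A form of the core reported for PLAG family factors is GGGGC and then GGG after 6 to 8 bases of any kind. It was found on either strand in 3 of the 24 Hox windows, from 3 genes, and in 15.9% of all windows. The genes were Hoxa10, Hoxa13 and Hoxb1, each of them too dim to test, and Hoxa13 held it at 2 places. The matches are shown with their flanks because Plagl2 belongs to this family, the match itself in capitals, read along the gene's strand.

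Hoxa10 (chr6:52240927-52240970, minus strand): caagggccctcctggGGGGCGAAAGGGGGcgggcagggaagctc
Hoxa13 (chr6:52260906-52260950, minus strand): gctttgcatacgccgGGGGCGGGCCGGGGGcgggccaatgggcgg
Hoxa13 (chr6:52260840-52260885, minus strand): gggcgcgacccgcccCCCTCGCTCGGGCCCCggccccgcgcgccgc
Hoxb1 (chr11:96365661-96365706, plus strand): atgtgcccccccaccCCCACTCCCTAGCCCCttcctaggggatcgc

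The Hoxa5 and Hoxc4 windows did not hold these letters. The hexamer TTTATG, reported for Cdx factors, was found on either strand in 5 of the 24 Hox windows and in 11.9% of all windows. The genes were Hoxa7, Hoxb8, Hoxd3, Hoxd4 and Hoxd11. Of these only Hoxd3 was bright enough to test under its own symbol, at 20, 29, 32 and 17 in wild-type and 32, 28, 26 and 33 in knockout samples (0.19, adjusted p = 0.609). The motifs were matched in different Hox genes, so no match of one overlapped a match of the other.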

How the data were processed

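Total RNA of 8 intestines was labelled from an oligo-dT primer and hybridised to Affymetrix MOE430 2.0 arrays, per the labels. The deposited table holds 1 signal intensity per probe set and array on a linear scale, already scaled, as read from the nearly equal trimmed means of the arrays. The signal algorithm is not given in the sources used here. Signals were turned into log2(signal + 16) with no further normalization, as array medians differed by 0.158 at most. Of 45037 probe sets other than controls, the dimmest 40% by mean were left out and 27022 were fitted in limma 3.58.1 (R 4.3.3) with an intensity trend and genotype as the only term. Calls were made two-sided at 0.05 after Benjamini-Hochberg adjustment over all tested. The added 16 makes differences of dim genes smaller. The fit was tested on simulated data.

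Gene names came from the platform annotation, in which 34958 probe sets have 1 symbol, 932 several and 9211 none. A listed gene was read by its brightest tested probe set. Lists were described by counts and medians. The Hox genes and the lists were chosen with earlier results of these data known. Named were Hox genes called or without overlap, those highest and lowest in each cluster, and list members called (up to 5) or else the 2 with the smallest p. Hoxb6, Hoxa13, Hoxb13, Hoxd12, Hoxd13, Cdx2, Meis3, Gata4, Pdx1, Onecut2, Fabp6, Slc10a2, Retnlb, Alb, Ahsg, Cbx1 and Snx11 were named after their values were seen. So were Gdf11, Fgb, Serpina1b, Hpx, Tat, Cyp2e1, Gip, Cck, Lct, Ada, Ptprc, Cd68, Lyz2 and Alas2. Alternatives were other limits on low signals, offsets and normalization, array weights, no intensity trend, a replicate block, covariates for Xist, RNA integrity and mesenchyme, and arrays left out. The number of arrays limits the precision.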

Additional observations from a re-analysis of the deposited data

Results flagged for a closer look

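Hoxa5 (1448926_at) gave 283 in knockout replicate 3, far below the other knockouts at 440 to 471, a gap that is large for the range of 4 samples. Among the 46 groups of 4 looked at this was 1, and chance alone gives about 1 in 20.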

How the results depend on the processing

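With 4 arrays a genotype, differences of dim Hox genes are measured only coarsely, and genes of paralogues 9 to 13 could not be tested. Hoxb5 was called as higher in 19 of 21 alternatives. Hox probe sets called as higher numbered 1 with all arrays and 1 to 4 with 1 array left out. They were 4 with array weights, 3 with the Xist signal as a covariate, 4 in the arrays without Xist signal, 2 without wild-type replicate 3 and knockout replicate 4, and 0 after correction for the 3' to 5' ratio. The cause was not tested. All probe sets called were 5215, 2024, 2152, 4329 and 1390 under these settings, 3238 with all arrays, and 2227 to 4251 with 1 array left out. The median Hox log2 fold change was 0.12 to 0.36 with 1 array left out and -0.04 with the mesenchyme level as a covariate. The paralogue slope turned to -0.027 with no limit on low signals and -0.031 with the mesenchyme covariate, and was -0.001 to 0.048 with 1 array left out. Same-numbered arrays did not deviate together (correlations of -0.01, -0.05, -0.27 and -0.12). These values show no sign of pairing by number, but so few arrays cannot settle whether samples were paired. With the replicate block, 0 Hox probe sets and 1915 of all probe sets were called, and Hoxb5 had an adjusted p of 0.0628.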
